A study of Mus musculus with 12 samples.

Results

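The genes described here encode the coat of caveolae and number 9 of the 25230 genes counted in each library. They are the caveolins Cav1, Cav2 and Cav3, the cavins Cavin1, Cavin2, Cavin3 and Cavin4, and the membrane-shaping proteins Ehd2 and Pacsin2, and their rows were found by gene symbol, for a set put together with earlier results of these data known. Expression was measured by RNA-seq in mouse mesangial cells (MMC), the contractile support cells of the kidney glomerulus, which had been isolated from pooled glomeruli of C57BL/6 mice and kept as primary cultures. Wild-type (WT) cells were compared with cells of the lncMGC-KO5 line (KO), 1 mouse line in which CRISPR-Cas9 had deleted a stretch just downstream of the transcription start of lncMGC, a long non-coding RNA that hosts a large microRNA cluster. Cells of both genotypes were either serum-depleted and untreated (SD) or treated with TGF-β, a profibrotic cytokine, at 10 ng/ml for 24 h. This gave 3 libraries each of WT-SD and WT-TGF cells and 3 each of KO-SD and KO-TGF cells. Whether the TGF-β cells were also serum-depleted is not stated in the sources used here. The study calls the samples of a group independent, but the sources used here do not say whether that means separate cultures or animals, so the p-values measure the spread between these libraries, which may be technical, and the effect of the deletion cannot be told apart from other differences between the WT and KO cultures. The counted genes did not include lncMGC, and its deletion was not checked here.

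Caveolae are flask-shaped pits of the plasma membrane. Caveolins are hairpin membrane proteins that build the pit, cavins form a coat on its cytoplasmic face, and Ehd2, an ATPase, and Pacsin2, a protein with an F-BAR domain that bends membranes, hold its neck. In mesangial, smooth muscle and endothelial cells caveolae take part in mechanical buffering, lipid uptake and signalling, including the turnover of TGF-β receptors.

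Libraries had between 19898050 and 22827706 counts on genes, and a gene with 3 counts in a library had between 0.128 and 0.163 CPM (counts relative to the library's total). CPM values below are scaled by TMM, which corrects for the makeup of each library. Replicate libraries of KO-SD differed from each other more than those of the other groups did. The chi-square of the counts per degree of freedom was 5.07 and 4.21 for the pairs with KO-SD replicate 1 and at most 2.6 for the other pairs of replicates, so values that rest on that library are also given without it. The summed level of 8 mesangial and smooth muscle markers ran from 2577 to 2722 CPM in WT-SD, 5837 to 5976 in WT-TGF, 5099 to 5286 in KO-SD and 11203 to 11285 in KO-TGF. Most of it was the contractile genes Acta2 and Tagln, with means of 1540 and 702 CPM in WT-SD and 6361 and 3961 in KO-TGF. Myl9 and Cnn1 rose as the sum did. Pdgfrb followed it less closely, at 283 CPM in WT-SD, 385 in WT-TGF, 307 in KO-SD and 363 in KO-TGF. None of the 8 was at 0 in a whole group, although Des was lower in KO (log2 fold change −3.82 in SD) and Itga8 and Myh11 did not pass the filter on low values. The summed level of 10 macrophage markers was 34.7 to 37.6 CPM in WT-SD, 19.1 to 22.7 in WT-TGF, 8.15 to 9.78 in KO-SD and 2.32 to 2.66 in KO-TGF, and 5 of them (Adgre1, C1qa, C1qb, C1qc and Tyrobp) were at 0 in all KO libraries. The sum of 9 endothelial markers ran from 32.6 to 32.9 CPM in WT-SD, 20.2 to 22.7 in WT-TGF, 17.2 to 18.6 in KO-SD and 9.37 to 11 in KO-TGF and was nearly all Ehd3. The other 8 summed to 0.537 to 0.851 CPM in WT-SD, 0.179 to 0.445 in WT-TGF, 0.690 to 1.06 in KO-SD and 0.108 to 0.532 in KO-TGF, with no more than 10 counts of any of them in a library, and Cldn5 was at 0 throughout. The sum of 6 podocyte markers lay between 452 and 476 CPM in the WT libraries and between 208 and 228 CPM in the KO libraries, and that of 8 tubular markers was 47.8 to 50.4 CPM in WT-SD, 17.1 to 18.5 in WT-TGF, 20.5 to 22.2 in KO-SD and 9.12 to 10.4 in KO-TGF. Adipocyte markers summed to at most 0.291 CPM in any library. In bulk RNA fewer cells of a type and less RNA per cell cannot be told apart, and the part of these marker differences in the results below was not tested.

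The 3 promoters shown here belong to the gene with the widest range of expression among the 9, Cavin2, and to the neighbouring genes Cav2 and Cav1, which differed in their changes. Each sequence gives the 250 bases upstream of the annotated start on the strand of the gene, from RefSeq on GRCm38.p6 (mm10). Capitals mark matches, on either strand, to CAGAC (the SMAD box), CATTCC (the TEAD site) or TGANTCA (the AP-1 site).
Cavin2, chr1:51288876-51289125, + strand: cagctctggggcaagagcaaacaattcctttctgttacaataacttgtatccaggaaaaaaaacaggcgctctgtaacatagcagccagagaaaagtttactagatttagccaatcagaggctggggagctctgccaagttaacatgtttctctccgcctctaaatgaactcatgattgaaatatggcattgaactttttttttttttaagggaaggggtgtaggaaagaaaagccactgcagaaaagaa
Cav2, chr6:17280935-17281184, + strand: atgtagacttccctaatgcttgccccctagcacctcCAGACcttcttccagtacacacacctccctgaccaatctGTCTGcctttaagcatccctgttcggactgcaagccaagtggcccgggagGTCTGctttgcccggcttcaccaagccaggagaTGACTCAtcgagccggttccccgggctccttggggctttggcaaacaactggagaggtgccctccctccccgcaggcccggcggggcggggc
Cav1, chr6:17306085-17306334, + strand: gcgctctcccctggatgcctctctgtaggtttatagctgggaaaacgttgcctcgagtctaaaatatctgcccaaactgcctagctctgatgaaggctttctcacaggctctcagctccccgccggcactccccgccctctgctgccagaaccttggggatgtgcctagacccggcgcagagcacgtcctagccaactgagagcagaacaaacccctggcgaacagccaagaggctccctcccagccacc
The Cavin2 and Cav1 windows held none of the 3 motifs. The Cav2 window held 3 SMAD boxes and 1 AP-1 site, none of which overlapped. Of 32817 annotated windows of this length, 42.2% held the SMAD box, 12.6% the TEAD site and 6.75% the AP-1 site. The second annotated Cav1 start had 2 SMAD boxes upstream, Cavin1 had 1 TEAD site, Cavin4 and Ehd2 had 1 SMAD box each, and the Cav3 window had none of the motifs. For Pacsin2, each of 3 annotated starts had 1 motif upstream, a SMAD box at 2 of them and an AP-1 site at the other. A match is a description of the letters and does not show that a factor binds there. Cavin3 had no promoter entry.

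On the genome (GRCm38.p6), Cav2 (NCBI gene 12390, chr6:17281185-17289130, + strand) and Cav1 (NCBI gene 12389, chr6:17306335-17341328, + strand) lie 17204 bases apart, and Cav3 (NCBI gene 12391, chr6:112459505-112472872, + strand) lies far from them on chromosome 6. Cavin1 (NCBI gene 19285) is at chr11:100956736-100970617 on the − strand, Cavin2 (NCBI gene 20324) at chr1:51289126-51302960 on the + strand, Cavin3 (NCBI gene 109042) at chr7:105480616-105482197 on the − strand and Cavin4 (NCBI gene 68016) at chr4:48663514-48673492 on the + strand. Ehd2 (NCBI gene 259300) is at chr7:15946963-15967535 and Pacsin2 (NCBI gene 23970) at chr15:83375607-83464610, both on the − strand. Antisense genes overlap Cav1 and Cav2 (Gm15581) and Cavin2 (9330175M20Rik), but reads were counted by strand, and 9330175M20Rik had 0 counts in every library.

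Levels were compared between genes per length, in RPKM, which is CPM divided by the length in kilobases of all annotated exons joined. Cavin1, the cavin without which caveolae do not form, had the highest level in every group, from 124 ± 2.11 RPKM in WT-TGF to 193 ± 3.28 in KO-SD (mean ± SD, n = 3, as throughout). In both SD groups Ehd2 came next, followed by Cav1. In KO-TGF Cav1 stood second, at 120 ± 1.77 RPKM against 93.2 ± 1.40 for Ehd2, while in WT-TGF the ranges of Cav1 (70.5 to 78.4 RPKM) and Ehd2 (70.9 to 71.2 RPKM) overlapped. Pacsin2, Cavin3 and Cav2 lay between 16.7 and 36.3 RPKM as group means. Cavin3 passed Pacsin2 in KO-SD (36.3 ± 0.761 against 26.0 ± 0.138 RPKM) and lay below it in the other groups. Cavin2 and Cavin4 were low in WT cells, under 1 RPKM in all 6 libraries.

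Cav3, the caveolin of striated muscle, was not expressed at a level that these libraries could measure. Its counts were 2, 1 and 1 in WT-SD, 2, 3 and 2 in WT-TGF, 1, 0 and 0 in KO-SD, and 1, 1 and 0 in KO-TGF. No library exceeded the floor of 3 counts, so no fold change is given. Of the 9 genes, 8 had more than 1 RPKM in at least 1 library and were tested. Cavin2 passed that filter only in the 6 KO libraries and Cavin4 only in 1 library (KO-TGF replicate 1), so the counts of changed genes below are a description of these 8 genes.

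In WT cells, TGF-β raised Cav1, Cavin4 and Ehd2 and lowered Cavin1, Cavin2 and Cavin3, and neither Cav2 nor Pacsin2 passed the test (edgeR quasi-likelihood test, FDR below 5% over all 11479 genes tested), although Cav2 passed as higher in other fits given below. These 3 higher and 3 lower genes of 8 stand beside 39.3% of all genes tested that were higher and 33.4% that were lower. In KO cells, 4 were higher (Cav1, Cavin4, Ehd2 and Pacsin2) and 3 lower (Cavin1, Cavin2 and Cavin3), where 36.4% of all genes were higher and 37.8% lower. Their median log2 fold change was 0.08 in each genotype, beside 0.03 (WT) and −0.01 (KO) over all genes tested. With libraries scaled by their total alone, the medians over all genes moved to −0.16 and −0.23 and those of the 8 genes to −0.11 and −0.13. In WT 3 of the 8 were then higher and 4 lower, and in KO 2 were higher and 5 lower.

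**Figure D1:**
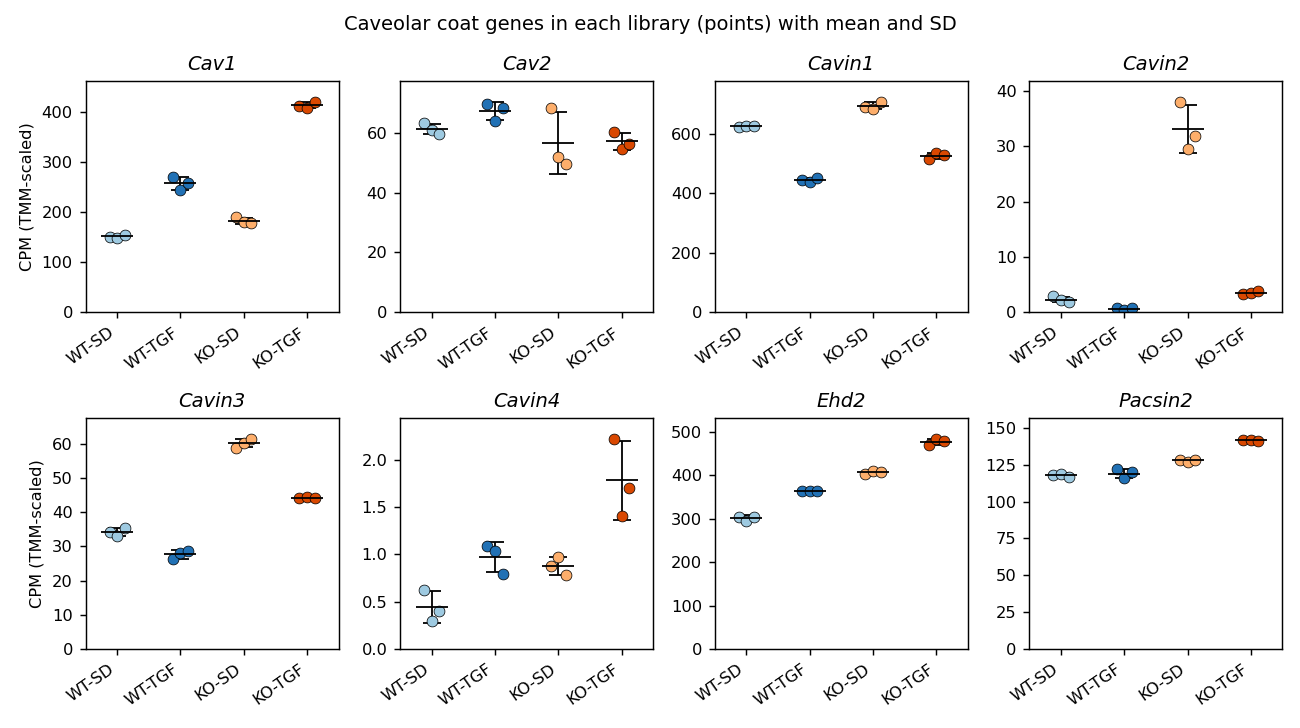
Expression of the 8 tested genes in each library, in TMM-scaled CPM (vertical axes, linear and starting at 0, a separate range for each gene) by group (horizontal axis). Points are the 3 libraries, and the long bar and whiskers give the mean and SD. Cavin2 stands at 29.6 to 38.0 CPM in KO-SD and at 3.78 CPM or less in the other groups, Cav1 is highest in KO-TGF, and 1 of the 3 KO-SD libraries lies above the others for Cav2.

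Cav1, the main structural protein of caveolae outside striated muscle, was at 150, 148 and 154 CPM in the WT-SD libraries and at 270, 243 and 258 CPM in WT-TGF. In KO-SD it was at 189, 179 and 177 CPM and in KO-TGF at 412, 407 and 419 CPM. The 4 groups did not overlap, and both KO groups lay above the WT group of the same treatment. TGF-β raised Cav1 by 0.77 ± 0.0324 on the log2 scale in WT (log2 fold change ± SE, edgeR adjusted p = 2.07e-19) and by 1.18 ± 0.0316 in KO (adjusted p = 1.38e-24), folds of 1.70 and 2.27. KO exceeded WT by 0.27 ± 0.0330 in SD (adjusted p = 2.95e-08) and by 0.68 ± 0.0309 under TGF-β (adjusted p = 3.3e-18). The response to TGF-β was larger in KO than in WT, by 0.41 ± 0.0452 (interaction, adjusted p = 1.68e-08).

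Cav2, which forms hetero-oligomers with Cav1 and depends on it to leave the Golgi, did not follow Cav1. It was at 63.1, 60.8 and 59.6 CPM in WT-SD, 69.6, 63.8 and 68.2 in WT-TGF, 68.3, 51.9 and 49.4 in KO-SD, and 60.4, 54.7 and 56.2 in KO-TGF. KO-SD replicate 1 lay above the other KO-SD libraries and overlapped WT-TGF. The TGF-β difference was 0.14 ± 0.0668 in WT (adjusted p = 0.0701) and 0.01 ± 0.0707 in KO (adjusted p = 0.871), and the KO difference in SD was −0.11 ± 0.0682 (adjusted p = 0.160), none of which passed the test. Under TGF-β, Cav2 was lower in KO than in WT, by −0.23 ± 0.0693 (adjusted p = 0.00485), a call that DESeq2 did not make (adjusted p = 0.0766). Without KO-SD replicate 1 the KO difference in SD was −0.27 (adjusted p = 2.63e-06) and the TGF-β difference in KO was 0.17 (adjusted p = 0.00138), so the calls depend on that library. The KO difference in SD also passed with all libraries kept, at −0.22 with library totals (adjusted p = 0.00623) and at −0.11 with no filter (adjusted p = 0.0217). The WT response to TGF-β passed as higher with no filter (adjusted p = 0.00289), in a fit of only WT-SD and WT-TGF (0.13, adjusted p = 0.00156), and when WT-TGF replicate 2 (0.18, adjusted p = 0.0316), KO-SD replicate 1 (0.13, adjusted p = 0.00225) or KO-SD replicate 3 (0.14, adjusted p = 0.0345) was left out, and its adjusted p with DESeq2 was 0.474. With libraries scaled by their total alone, the TGF-β differences of Cav2 turned negative, −0.05 in WT and −0.20 in KO. 

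Because both are genes of 1 library, the ratio of Cav1 to Cav2 does not depend on how libraries are scaled. Per length, it was 2.31, 2.35 and 2.50 in WT-SD, 3.75, 3.69 and 3.66 in WT-TGF, 2.68, 3.34 and 3.48 in KO-SD, and 6.61, 7.20 and 7.22 in KO-TGF. The KO-TGF ratios lay above those of every other group, and no test was run on the ratios. Cav1 made up 70.4% ± 0.869 of summed caveolin RPKM in WT-SD, 78.6% ± 0.218 in WT-TGF, 75.8% ± 2.65 in KO-SD and 87.5% ± 0.563 in KO-TGF. In KO-SD its share was 72.8% in replicate 1 and 76.9% and 77.7% in the other libraries.

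Along chromosome 6, the listed neighbours of the pair were Tes, a focal adhesion protein, on the Cav2 side and Met, the receptor of hepatocyte growth factor, and Capza2, an actin capping subunit, on the Cav1 side. Tes rose with TGF-β by 0.84 in WT and 0.96 in KO (log2 fold change), as Cav1 did, and was higher in KO by 0.25 in SD and 0.37 under TGF-β. Met fell with TGF-β by 1.12 in each genotype and was at −0.48 in KO against WT in both conditions. Capza2 was higher by 0.13 or 0.14 in each of the 4 comparisons, and its TGF-β differences turned to −0.06 (WT) and −0.08 (KO) with libraries scaled by their total alone, where its KO differences were 0.03 (adjusted p = 0.417) and 0.01 (adjusted p = 0.896). Genes of this stretch thus changed in both directions around Cav2.

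**Figure D2:**
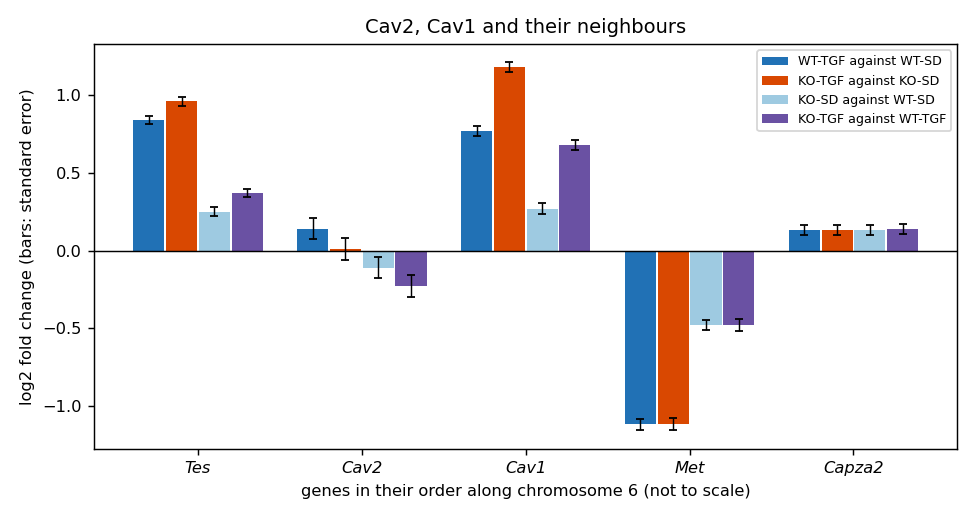
Log2 fold change (vertical axis, bars, with standard errors as whiskers) of Cav2, Cav1 and the genes beside them in the order in which they lie along chromosome 6 (horizontal axis, not to scale), for both TGF-β and both KO comparisons. Tes and Cav1 are above 0 in every comparison and Met is below 0, while Cav2 and Capza2 stay within 0.23 of 0, and the TGF-β bars of Cav2 and Capza2 turn negative with libraries scaled by their total alone.

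Cavin1 fell with TGF-β and was somewhat higher in KO cells. It was at 621, 626 and 626 CPM in WT-SD, 444, 437 and 452 in WT-TGF, 691, 683 and 706 in KO-SD, and 515, 534 and 527 in KO-TGF. The groups did not overlap. TGF-β lowered it by −0.49 ± 0.0233 in WT (adjusted p = 4.16e-18) and by −0.40 ± 0.0232 in KO (adjusted p = 6.13e-16). KO exceeded WT by 0.15 ± 0.0230 in SD (adjusted p = 1.59e-06), which was 0.05 (adjusted p = 0.0809) with libraries scaled by their total alone, and by 0.24 ± 0.0235 under TGF-β (adjusted p = 2.58e-10). The fall was smaller in KO by 0.09 ± 0.0329 (interaction, adjusted p = 0.0356), and this call was lost when any of 7 libraries was left out (WT-SD replicates 2 and 3, WT-TGF replicates 1 and 2, KO-SD replicate 2, KO-TGF replicates 2 and 3), with adjusted p up to 0.109, and at library-total scaling (0.147).

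Cavin2, also known as Sdpr, a phosphatidylserine-binding cavin that shapes caveolae into tubules, moved most. Its counts were 64, 52 and 41 in WT-SD, 15, 7 and 15 in WT-TGF, 825, 611 and 692 in KO-SD, and 61, 63 and 71 in KO-TGF. In CPM these were 2.86, 2.21 and 1.83, then 0.711, 0.314 and 0.743, then 38.0, 29.6 and 31.8, and last 3.31, 3.40 and 3.78. KO-SD lay far above the rest, KO-TGF came close to the WT-SD range from above, and no groups overlapped. KO-SD exceeded WT-SD by 3.84 ± 0.154 on the log2 scale (14.4-fold, adjusted p = 2.41e-22), and 3 of the 11479 genes tested had a larger log2 fold change in that comparison. Without KO-SD replicate 1 and every other library in turn, this difference stayed between 3.71 and 4.03. KO-TGF exceeded WT-TGF by 2.58 ± 0.319 (5.96-fold, adjusted p = 1.58e-09), with 28 genes above it. Cavin2 passed the filter on low values only in KO libraries, so these KO differences, their ranks and p-values are a description.

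TGF-β lowered Cavin2 by −1.97 ± 0.325 in WT (3.93-fold, adjusted p = 4.54e-07) and by −3.24 ± 0.141 in KO (9.46-fold, adjusted p = 2.38e-21). The fall was larger in KO by −1.27 ± 0.355 (interaction, adjusted p = 0.0124). That difference rests on 7 to 15 counts in the WT-TGF libraries and did not pass when WT-TGF replicate 1 (−1.10, adjusted p = 0.0919) or replicate 3 (−1.07, adjusted p = 0.104) was left out. Endothelial cells are rich in Cavin2. The summed endothelial markers other than Ehd3, given above, overlapped between WT-SD and KO-SD (at most 0.851 and 1.06 CPM) and were lower in both TGF-β groups. Ehd3 was lower in KO than in WT, by −0.90 in SD and −1.09 under TGF-β, where Cavin2 was higher. The part of endothelial RNA in the Cavin2 differences was not tested.

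Cavin3, a cavin that binds protein kinase C delta, was at 34.3, 33.0 and 35.5 CPM in WT-SD and 26.3, 28.1 and 28.7 in WT-TGF. In KO-SD it was at 58.9, 60.4 and 61.4 CPM, and in KO-TGF at 44.3, 44.5 and 44.1. Both KO groups lay above both WT groups. KO exceeded WT by 0.82 ± 0.0422 in SD (1.76-fold, adjusted p = 8.43e-17) and 0.68 ± 0.0472 under TGF-β (1.60-fold, adjusted p = 1.3e-13). TGF-β lowered Cavin3 by −0.31 ± 0.0476 in WT (adjusted p = 1.17e-06) and −0.44 ± 0.0418 in KO (adjusted p = 5.56e-11). The difference between these responses, −0.14 ± 0.0633, did not pass (adjusted p = 0.114), and with libraries scaled by their total alone it did (−0.17, adjusted p = 0.0478).

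Cavin4, the cavin of striated muscle, was read at a low level, with 14, 7 and 9 counts in WT-SD, 23, 23 and 16 in WT-TGF, 19, 20 and 17 in KO-SD, and 41, 26 and 32 in KO-TGF. Unlike the other cavins, it was higher with TGF-β, by 1.14 ± 0.341 in WT (adjusted p = 0.0027) and 1.02 ± 0.260 in KO (adjusted p = 0.000658). It was also higher in KO, by 0.98 ± 0.346 in SD (adjusted p = 0.0135) and 0.86 ± 0.252 under TGF-β (adjusted p = 0.00389). The SD difference was 0.76 (adjusted p = 0.0814) without WT-SD replicate 2. The interaction was −0.12 ± 0.429 (adjusted p = 0.881). Cavin4 passed the filter on low values only through KO-TGF replicate 1, and KO-TGF is the group where it was highest. Its fold changes and p-values are therefore a description. Of 6 striated muscle markers, Myod1, Ckm and Myh7 were at 0 in every library, and the sum, mostly Tnnt2, was 0.984 to 1.79 CPM in WT-SD, 12.5 to 14.8 in WT-TGF, 1.84 to 2.35 in KO-SD and 8.80 to 9.76 in KO-TGF.

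With TGF-β the neck proteins changed less than Cav1 and the cavins, while the KO differences of Ehd2 exceeded those of Cavin1 in both conditions. Ehd2 was at 305, 294 and 305 CPM in WT-SD, 363, 364 and 363 in WT-TGF, 404, 410 and 408 in KO-SD, and 469, 483 and 480 in KO-TGF, with no overlap between groups. It rose with TGF-β by 0.27 ± 0.0240 in WT (adjusted p = 1.8e-11) and 0.23 ± 0.0236 in KO (adjusted p = 4.93e-10), the latter 0.01 (adjusted p = 0.694) with libraries scaled by their total alone. Its KO differences were 0.44 ± 0.0239 in SD (adjusted p = 4.15e-16) and 0.39 ± 0.0238 under TGF-β (adjusted p = 4.73e-15), and the interaction was −0.04 ± 0.0337 (adjusted p = 0.388).

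Pacsin2 was at 118, 119 and 117 CPM in WT-SD, 122, 116 and 120 in WT-TGF, 128, 127 and 128 in KO-SD, and 142, 142 and 141 in KO-TGF. Only the WT groups overlapped, with a TGF-β difference of 0.02 ± 0.0292 (adjusted p = 0.656). In KO it was higher with TGF-β by 0.15 ± 0.0290 (adjusted p = 2.6e-05), and the responses differed by 0.14 ± 0.0411 (interaction, adjusted p = 0.0124). With libraries scaled by their total alone, the TGF-β differences became −0.17 in WT (adjusted p = 4.08e-06) and −0.07 in KO (adjusted p = 0.0415), so the direction of the Pacsin2 response depends on the scaling. KO exceeded WT by 0.11 ± 0.0290 in SD (adjusted p = 0.00114), which DESeq2 did not call (0.07, adjusted p = 0.0772) nor did library-total scaling (0.01, adjusted p = 0.775), and by 0.25 ± 0.0292 under TGF-β (adjusted p = 1.08e-08).

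**Figure D3:**
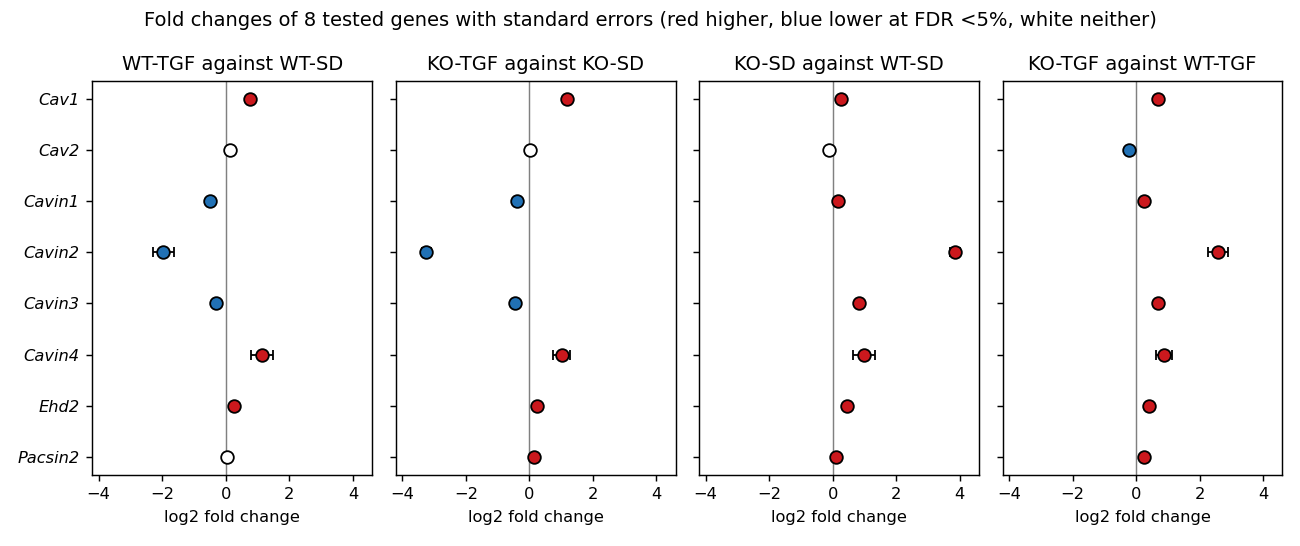
Log2 fold change (horizontal axis) with standard error of each of the 8 tested genes (vertical axis) in the TGF-β comparisons within WT and within KO and in the KO comparisons within SD and within TGF-β. Red points were higher and blue points lower at an FDR below 5%, and white points neither. Cavin2 lies farthest from 0 in each panel, at −1.97, −3.24, 3.84 and 2.58, and with libraries scaled by their total alone the TGF-β points of Cav2 and Pacsin2 fall below 0.

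Between genotypes, 7 of the 8 tested genes had higher levels in KO under SD, all but Cav2, and none was lower (edgeR quasi-likelihood test, 0 also at an unadjusted p under 0.05 and with DESeq2). Over all genes tested, 35.6% were higher and 21.6% lower. With library totals 5 were higher and 1 (Cav2) lower, with DESeq2 6 were higher, and without KO-SD replicate 1 Cav2 was called lower. Under TGF-β, 7 of the 8 were higher in KO and 1, Cav2, was lower, beside 28.9% higher and 26.3% lower over all genes. Cavin2 and Cavin4, higher in KO in both conditions, had passed the filter on low values only in KO libraries. The counts and medians that include them only describe these 8 genes. The medians of the 8 genes were 0.35 in SD and 0.54 under TGF-β, and those of all genes were 0.05 and 0.01, and with libraries scaled by their total alone the 8 genes had 0.25 and 0.40 and all genes −0.05 and −0.12. In the interaction, 3 genes had a higher response in KO (Cav1, Cavin1 and Pacsin2) and 1 a lower one (Cavin2), beside 7.69% and 18.7% of all genes. The median interaction was −0.08, and −0.05 over all genes. The 4 comparisons share groups, so their values for a gene are not independent of each other.

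Summed per length, caveolins and cavins moved in opposite directions with TGF-β. The caveolin sum was 62.1 ± 0.795 RPKM in WT-SD, 94.8 ± 4.85 in WT-TGF, 69.7 ± 4.88 in KO-SD and 137 ± 2.09 in KO-TGF. Nearly all of it was Cav1 and Cav2. With TGF-β, mean Cav1 went from 43.7 to 74.6 RPKM in WT and from 52.7 to 120 in KO. Mean Cav2 went only from 18.3 to 20.1 RPKM in WT and from 16.9 to 17.1 in KO. The cavin sum was 196 ± 0.992 RPKM in WT-SD, 141 ± 2.43 in WT-TGF, 241 ± 3.83 in KO-SD and 175 ± 2.60 in KO-TGF. Cavin4, a small part of it, was higher with TGF-β. The cavin to caveolin ratio, which does not depend on the scaling, was 3.11 to 3.19 in WT-SD, 1.41 to 1.55 in WT-TGF, 3.20 to 3.69 in KO-SD and 1.25 to 1.32 in KO-TGF. The TGF-β libraries of each genotype thus lay below its SD libraries without overlap. Within each condition the ranges of WT and KO did not overlap but lay close (3.19 against 3.20 in SD), with no test run. The 3.20 was that of KO-SD replicate 1, and the other KO-SD libraries were at 3.51 and 3.69. Cavin1 to Cav1 alone gave mean ratios of 3.98 ± 0.0768, 1.66 ± 0.0763, 3.67 ± 0.152 and 1.22 ± 0.0327 in the same order of groups.

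Within the cavins, the makeup differed by genotype. Cavin1 held 89.0% ± 0.363 of the cavin RPKM in WT-SD and 87.7% ± 0.410 in WT-TGF, and 80.3% ± 0.281 in KO-SD and 83.6% ± 0.321 in KO-TGF. Cavin3 held 10.5% ± 0.346 and 11.8% ± 0.472 in WT and 15.1% ± 0.323 and 15.2% ± 0.213 in KO. Cavin2 held 4.50% ± 0.579 in KO-SD, 0.386% ± 0.0888 in WT-SD, 0.136% ± 0.0542 in WT-TGF and 0.653% ± 0.0441 in KO-TGF. Cavin4 held at most 0.628% in any library.

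**Figure D4:**
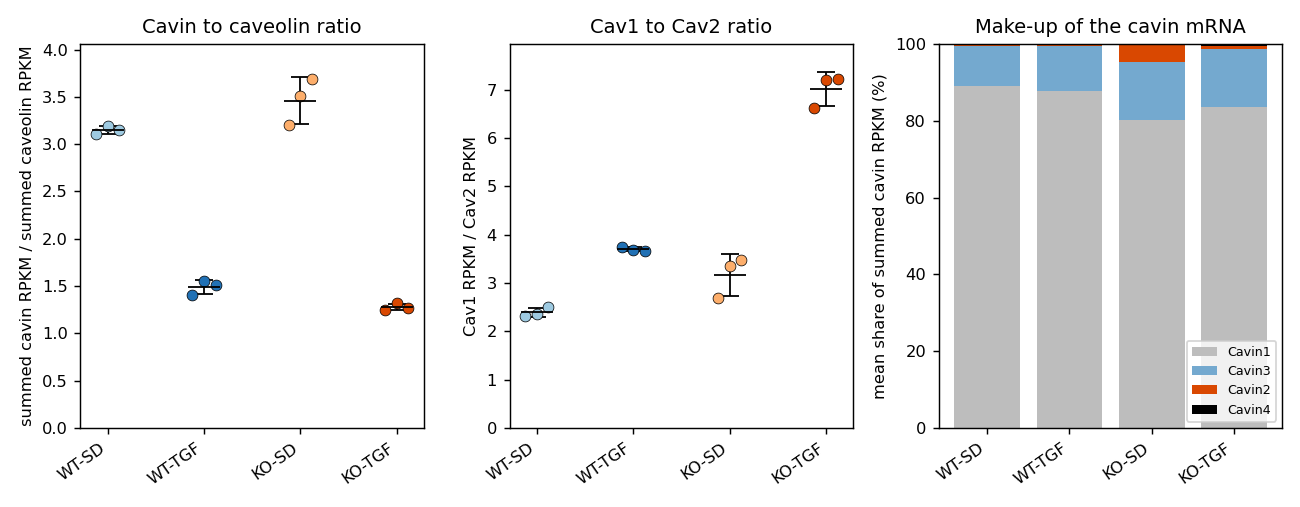
The left and middle panels give, for each library (points) with the group mean and SD, the ratio of summed cavin RPKM to summed caveolin RPKM and the ratio of Cav1 RPKM to Cav2 RPKM (vertical axes starting at 0). The right panel stacks each cavin's mean share of the summed cavin RPKM, in percent, by group. The cavin to caveolin ratio is 3.11 or more in every SD library and 1.55 or less in every TGF-β library, and Cavin2 takes a visible share in KO-SD, 4.50%.

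Across the 12 libraries, which fall into 4 groups and so are not independent points, the log2 CPM of Cavin2 and Cavin3 had a Pearson correlation of 0.96 and that of Cavin1 and Cavin2 one of 0.85. Cav1 correlated with Cavin4 (0.88) and Ehd2 (0.81) and not with Cav2 (−0.02). The genes whose pattern was most like that of Cavin2 over the 12 libraries were Marcks (0.989), Epha7 (0.989) and Gpc4 (0.988), and for Cavin4 they were Itch (0.970), Crls1 (0.965) and Samd4b (0.965). These are descriptions, and their spans were far smaller than that of Cavin2, whose group means spanned 5.66 on the log2 scale. Mean Epha7 levels, for example, were 102 (WT-SD), 68.6 (WT-TGF), 245 (KO-SD) and 113 CPM (KO-TGF).

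Relatives of the neck proteins changed in both directions. Of 8 listed genes 6 were tested, and with TGF-β 3 were higher and 2 lower in each genotype, beside 39.3% higher and 33.4% lower of all genes in WT and 36.4% and 37.8% in KO. With library totals the balance turned, to 2 higher and 3 lower in each genotype. Ehd1, an endosomal recycling protein, rose by 0.63 in WT and 0.73 in KO, and was higher in KO by 0.37 in SD and 0.47 under TGF-β. Ehd3, which in the glomerulus marks endothelium and is also in the endothelial list above, fell by 0.62 in WT and by 0.81 in KO and was at −0.90 and −1.09 in KO against WT. Ehd4 rose by 0.66 in WT and 0.25 in KO, an interaction of −0.41 (adjusted p = 3.14e-05), the KO rise being 0.03 (adjusted p = 0.573) with libraries scaled by their total alone, and was at −0.17 and −0.58 in KO against WT, opposite in direction to Ehd2. Dnm1, a dynamin, fell by 0.71 in WT and by 0.44 in KO. Dnm2, another dynamin, had higher levels, with group means of 130 to 184 CPM against 11.8 to 19.3 for Dnm1. It rose with TGF-β by 0.25 in WT and 0.29 in KO and was higher in KO by 0.21 and 0.26. The WT rise of Dnm2 was not called with library totals.

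Among 14 listed kinases, receptors and an actin linker tied to caveolae, 12 were tested. With TGF-β 7 were higher and 2 lower in WT, and 8 higher and 2 lower in KO, against the same shares of all genes, and with library totals 7 and 4 in WT and 6 and 4 in KO. Flna, the filamin that links caveolae to actin, rose by 0.77 in WT and 0.78 in KO and was higher in KO by 0.58 in both conditions. Src, a kinase that phosphorylates Cav1, rose by 0.45 and 0.58. Fyn, a kinase of the same family, rose by 0.69 in WT and 1.39 in KO, an interaction of 0.70, and was lower in KO-SD (−0.20) and higher in KO-TGF (0.50) than in WT. Tgfbr2, the type II TGF-β receptor, rose by 0.55 and 0.49 with TGF-β and was higher in KO by 0.60 and 0.54. Other listed receptors went otherwise in KO against WT. Tgfbr1 did not pass in SD (0.07) and was lower under TGF-β (−0.13). Bmpr2 was lower under TGF-β (−0.18) and, just under the threshold, in SD (−0.09, edgeR adjusted p = 0.0454). In SD its WT and KO groups overlapped, and DESeq2 did not call it. Ror1, a receptor that holds Cavin1 and Cav1 together in some cells, was at −0.76 in KO-SD and −1.30 in KO-TGF against WT, fell with TGF-β in KO (−0.50), and had an interaction of −0.55. Prkca, a protein kinase C that binds Cavin2, rose by 0.68 in WT and 0.45 in KO, with an interaction of −0.23. Between genotypes the list had 5 higher and 3 lower in SD, and 5 higher and 4 lower under TGF-β, where 35.6% and 28.9% of all genes were higher and 21.6% and 26.3% lower. With library totals lower genes outnumbered higher ones, 5 to 4 in SD and 6 to 5 under TGF-β.

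The flotillins, raft proteins of another kind of membrane domain, fell with TGF-β in both genotypes, Flot1 by 0.30 and 0.47 and Flot2 by 0.26 and 0.33. Of the 5 raft genes, 1 was higher and 2 lower in WT, and 3 were lower in KO, where the other 2 did not pass. Over all genes, 39.3% (WT) and 36.4% (KO) were higher and 33.4% and 37.8% lower. With library totals 4 were lower in each genotype and the remaining gene was not called higher. For the clathrin coat, the other main coat of endocytosis, 8 of 9 genes were higher with TGF-β in WT and 7 of 9 in KO, with 1 lower in KO, led by Ap2a2 (0.75 and 0.77), beside the same shares of all genes. These clathrin counts depended on the scaling, and fell to 2 higher and 2 lower in WT and 3 higher and 2 lower in KO with libraries scaled by their total alone. In KO against WT, 5 clathrin genes were higher and 1 lower in SD, and 7 higher and 2 lower under TGF-β. Over all genes, 35.6% (SD) and 28.9% (TGF-β) were higher and 21.6% and 26.3% lower. With library totals 2 clathrin genes were higher and 1 lower in SD, and 3 higher and 2 lower under TGF-β.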

How the data were processed

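RNA-seq counts of 12 libraries, 3 for each genotype and treatment, were grouped by their labels. The deposited values are raw counts per gene: the authors made single-end mRNA libraries, used TopHat for alignment to mm10 and HTSeq-count, by strand, for the counts on RefSeq genes. Rows that name no gene (reads on no gene, 10.3% to 15.4%, highest in WT-SD and lowest in KO-TGF, and 11.2% to 11.7% not uniquely aligned) were left out. Counts were fitted with edgeR 4.0.16 (R 4.3.3, quasi-likelihood test, TMM scaling) over the 4 groups, for 11479 genes with more than 1 RPKM in at least 1 library. RPKM used the exon length of each gene (24407 of 25230 genes matched by symbol, 309 by an older one). P-values were adjusted by Benjamini-Hochberg over all genes tested, and calls were made at an FDR below 5%. The interaction is the KO response to TGF-β minus the WT response. Alternatives were scaling by library total, DESeq2 1.42.0, other filters, a block for the replicate number, fits restricted to the groups in a comparison, and leaving out each library. The fit was tested on simulated data. The genes named were every member, genes of the related lists, and the 3 genes most correlated with the 2 members of widest range. Members and lists were chosen with earlier results of these data known.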

Additional observations from a re-analysis of the deposited data

Results flagged for a closer look

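The response to TGF-β differed between genotypes by a test of the difference itself (edgeR interaction, KO response minus WT response, on the log2 scale) for 4 of the 8 tested genes, 3 higher and 1 lower, beside 7.69% higher and 18.7% lower of all genes. For Cav1 the difference was 0.41, and the 3 KO-TGF libraries lay above all other libraries. The Cavin2 difference was −1.27, a larger fall in KO, and rests on low counts in WT-TGF, with the call lost without WT-TGF replicate 1 (−1.10) or 3 (−1.07). For Pacsin2 it was 0.14, and for Cavin1 0.09, the smallest of the 4 and lost when any of 7 libraries was left out.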

How the results depend on the processing

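For the 8 tested genes, 672 recomputed values kept their direction and side of the threshold, 16 lost and 12 gained a call, and 12 reversed. With libraries scaled by their total alone, the TGF-β differences reversed to −0.05 (Cav2) and −0.17 (Pacsin2) in WT and to −0.20 (Cav2) and −0.07 (Pacsin2) in KO, and those of Capza2 to −0.06 in WT and −0.08 in KO. The genes higher with TGF-β in KO then numbered 2 and the lower ones 5, in place of 4 and 3, lower ones in KO-SD 1 in place of 0, and lower interactions 2 in place of 1. With DESeq2, Pacsin2 in WT was at −0.03, the Ehd2 interaction at 0.00, and 0 genes were lower in KO-TGF in place of 1. Without any filter, 1 gene (Cav2) was lower in KO-SD. Replicate numbers did not pair the samples (18 correlations between −0.0285 and 0.0868), and with the replicate block 1 gene, Cav2 (−0.12, adjusted p = 0.0397), was lower in KO-SD in place of 0, and Cav2 in WT was higher with TGF-β (0.13, adjusted p = 0.0129). Leaving out single libraries gave ranges of −0.08 to 0.17 for the Cav2 response in KO, −0.21 to 0.04 for the Cav2 interaction (0.04 without KO-SD replicate 1) and −0.45 to 0.11 for the Cavin4 interaction (0.11 without WT-SD replicate 2, 0.03 without KO-TGF replicate 2). The Cav2 response was −0.04, −0.08 and −0.03 without KO-SD replicate 2, KO-SD replicate 3 and KO-TGF replicate 1. The number of genes lower in KO-SD ranged from 0 to 1 and that of lower interactions from 0 to 1, being 0 without WT-TGF replicate 1 or 3. The cause of these changes was not tested. Among all genes, calls were 54.1% (WT TGF-β), 49.0% (KO TGF-β), 62.3% (KO-SD), 52.4% (KO-TGF) and 29.1% (interaction) higher, and 30.6%, 25.7%, 37.0%, 23.4% and 20.6% with library totals, while DESeq2 gave 43.1% for the interaction. Depth limits Cav3, Cavin4 and, in WT-TGF, Cavin2.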
